A study of Mus musculus with 4 samples.

Results

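Receptors for neuropeptides and for neurotrophic factors were examined in CCR6+ group 3 innate lymphoid cells (ILC3), lymphocytes without rearranged antigen receptors. The 9 genes are Vipr1, Vipr2, Ramp1, Calcrl, Nmur1, Ret, Gfra1, Gfra2 and Gfra3, out of 19938 named genes. They were taken as probe sets that the platform annotation ties to that gene alone, and where a gene had more than 1, the probe set with the highest mean over the arrays was used. All 9 genes were found, and Vipr1 was the gene with 2 probe sets. The cells came from mesenteric lymph nodes of naive C57BL/6 mice, and total RNA of each of 4 samples was labelled with biotin and hybridised to its own array. The sort gate was CD127+ CD90.2+ CCR6+ ST2-, for which no other marker is stated, and the labels give neither the age of the mice nor whether the samples came from separate animals. The 4 samples form 1 group, so no condition or cell type was contrasted, and the spread between arrays may be partly technical.

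Immune cells near nerves carry receptors through which neurons and glia act on them. VIPR1 and VIPR2, also called VPAC1 and VPAC2, are receptors for vasoactive intestinal peptide (VIP) and for the related peptide PACAP, and signal mainly by raising cyclic AMP. CALCRL becomes the receptor for calcitonin gene-related peptide (CGRP) when it pairs with RAMP1, and a receptor for adrenomedullin when it pairs with RAMP2 or RAMP3. NMUR1 is a receptor for neuromedin U that couples to Gq and is best known in innate lymphoid cells of the ILC2 type. RET is a receptor tyrosine kinase that is engaged by ligands of the GDNF family through the co-receptors GFRA1, GFRA2 and GFRA3, which bind GDNF, neurturin and artemin. RET is known from the enteric nervous system and from ILC3 of the gut.

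Of the 9 genes, 6 were above background. Vipr2 and Ramp1 also stood well above genes of other organs, Calcrl just above them and Ret among them, and Nmur1 and Vipr1 were close to the threshold of the call. The co-receptor genes Gfra1, Gfra2 and Gfra3 were not called. The same rule called 46.2% of all named genes. Levels are deposited log2 values, and each gene was set against 1241 chemosensory receptor genes (olfactory, vomeronasal, bitter taste and trace amine receptors), which are taken to be silent in lymphocytes. The median of their means was 4.25 and their 95th percentile 5.82. The detection p was the one-sided rank of a gene's mean among them, with Benjamini-Hochberg adjustment across the 19938 genes, and a gene was called at an adjusted p under 0.05, which the lowest called gene reached at a mean of 6.37. A stricter reading required a level above that of all 14 measured genes of other organs on every array, which 3 of the 9 genes met (Vipr2, Ramp1 and Calcrl), against 21.7% of all named genes, and the same 3 met it without Cryaa, the highest of the 14, against 25%. In sorted bulk samples, few cells with a gene and little of its RNA in each cell cannot be told apart. Probe sets bind with different strength, so the 9 genes are not ranked against each other as amounts of RNA.

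**Figure D1:**
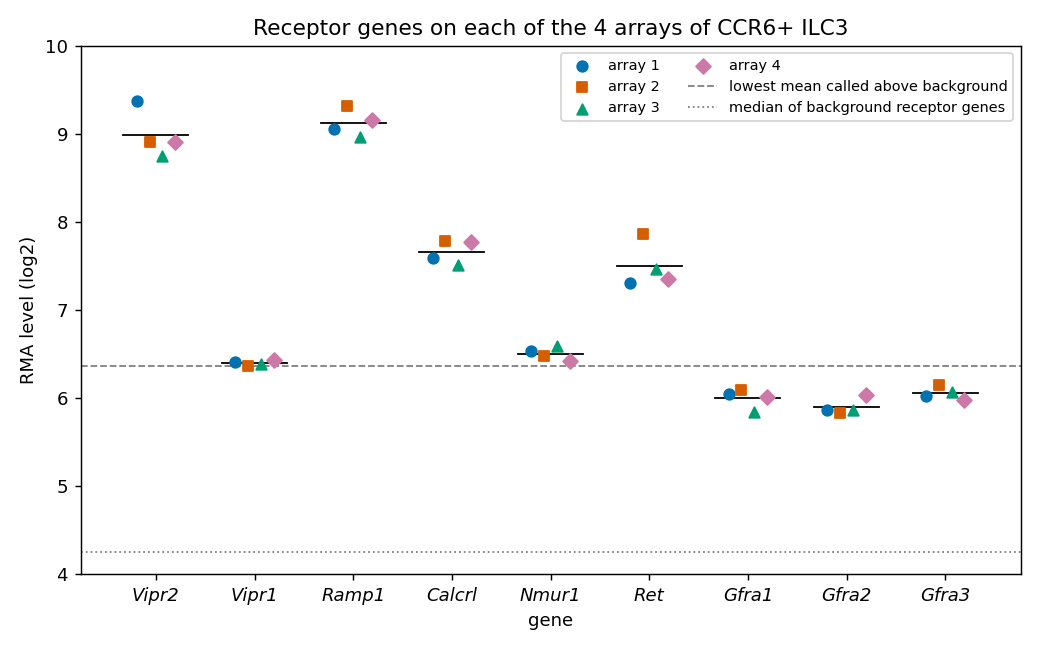
Deposited log2 levels of the 9 genes (y axis) by gene (x axis), with a point for each of the 4 arrays and a bar at the mean. The dashed line is the lowest mean called above background, 6.37, and the dotted line the median of the background genes, 4.25. Vipr2, Ramp1, Calcrl and Ret lie above the dashed line on every array, and the 3 Gfra genes below it.

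The pair of VIP receptors differed in how far each stood from background. The 300 bases around their transcript starts in RefSeq (build GRCm38.p6, 250 before and 50 after the start) are shown because these genes answer the same ligand, at chr12:116077476-116077775 on the plus strand for Vipr2 and chr9:121642466-121642765 on the plus strand for Vipr1. Capitals mark the half-site TGACG of the cyclic AMP response element, in either orientation.
Vipr2: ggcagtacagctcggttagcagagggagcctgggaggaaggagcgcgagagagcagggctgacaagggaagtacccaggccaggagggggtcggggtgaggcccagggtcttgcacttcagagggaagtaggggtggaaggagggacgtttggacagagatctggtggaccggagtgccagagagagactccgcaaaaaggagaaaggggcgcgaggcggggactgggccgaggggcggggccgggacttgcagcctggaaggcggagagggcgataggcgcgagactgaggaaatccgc
Vipr1: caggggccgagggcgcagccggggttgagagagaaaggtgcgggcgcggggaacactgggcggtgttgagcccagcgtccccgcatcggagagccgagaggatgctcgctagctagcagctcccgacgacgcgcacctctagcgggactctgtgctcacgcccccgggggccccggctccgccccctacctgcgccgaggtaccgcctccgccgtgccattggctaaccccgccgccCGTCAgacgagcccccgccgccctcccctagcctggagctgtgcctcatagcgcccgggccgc

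Vipr2 was at 9.37, 8.91, 8.75 and 8.91 on arrays 1 to 4, a mean of 8.98 ± 0.27 (SD, n = 4, as for all means that follow). Array 1 was the highest and array 3 the lowest, 1.54-fold apart, and arrays 2 and 4 carried the same value to all deposited digits. Only 1 of the 1241 background genes had a mean at or above it, and the adjusted detection p was 0.0142. On every array Vipr2 was at least 1.18 log2 units above all 14 genes of other organs.

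Vipr1 was at 6.41, 6.37, 6.39 and 6.43 on arrays 1 to 4, a mean of 6.40 ± 0.03. These values lay close together, but 26 background genes had a mean at or above theirs, and the adjusted detection p was 0.0476. The call was lost without array 3, at a mean of 6.40, and without array 4, at 6.39, where 44.3% and 45.6% of all named genes were called. It was kept without array 1 or array 2, where 47.1% and 48% were. The second probe set of Vipr1 was at 5.59, 5.69, 5.74 and 5.78, a mean of 5.70 ± 0.08, which 71 background genes reached. The probe sets of Vipr1 thus disagreed: averaged, they gave 6.05, which was not called, while averaging called 46.1% of all named genes.

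The promoters of both VIP receptors were rich in CpG, with 18 CpG in that of Vipr2 and 35 in that of Vipr1, against a median of 7 over 32851 RefSeq promoters of this length. The full cyclic AMP response element TGACGTCA was in neither. Vipr1 had 1 half-site TGACG, which is part of the full element, starting at -13, and Vipr2 had none. On either strand the full element occurs in 1.79% of all these promoters and the half-site in 20.8%. The core AGGTCA of the element bound by ROR nuclear receptors, searched on both strands and found in 16.3% of promoters, was in neither.

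Genes for both parts of the CGRP receptor were above background. Ramp1, the accessory subunit that makes CALCRL respond to CGRP, was at 9.06, 9.32, 8.96 and 9.16 on arrays 1 to 4, a mean of 9.12 ± 0.15. Arrays 2 and 4 were the highest. The mean was reached by 1 background gene, the adjusted detection p was 0.0142, and Ramp1 was at least 1.48 log2 units above the genes of other organs on every array.

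Calcrl, the receptor subunit itself, was at 7.59, 7.78, 7.51 and 7.77, a mean of 7.66 ± 0.14. Here too arrays 2 and 4 were the highest. The mean was reached by 4 background genes, with an adjusted detection p of 0.0161. Its margin over the genes of other organs was small, 0.02 log2 units on the array where it was smallest.

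The promoters of this receptor pair, shown because their products act as 1 receptor, lie at chr1:91179572-91179871 on the plus strand for Ramp1 and chr2:84425217-84425516 on the minus strand for Calcrl (GRCm38.p6, capitals as above).
Ramp1: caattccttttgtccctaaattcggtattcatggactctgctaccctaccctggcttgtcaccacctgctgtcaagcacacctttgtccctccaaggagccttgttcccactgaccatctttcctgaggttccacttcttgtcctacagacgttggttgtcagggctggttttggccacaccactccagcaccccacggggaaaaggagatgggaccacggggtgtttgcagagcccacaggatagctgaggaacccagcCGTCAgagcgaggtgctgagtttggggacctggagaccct
Calcrl: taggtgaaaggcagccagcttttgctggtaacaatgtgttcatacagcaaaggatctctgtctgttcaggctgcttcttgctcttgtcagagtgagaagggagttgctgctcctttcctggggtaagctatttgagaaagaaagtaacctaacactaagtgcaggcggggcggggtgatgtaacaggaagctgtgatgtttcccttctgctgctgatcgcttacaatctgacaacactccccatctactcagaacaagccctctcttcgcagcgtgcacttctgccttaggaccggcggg
They held 6 and 7 CpG, near the median of 7 over all promoters. Ramp1 had 1 half-site TGACG, starting at +11, and Calcrl had none. Neither held the full element or AGGTCA.

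Nmur1 was near the threshold. It was at 6.54, 6.48, 6.59 and 6.42 on arrays 1 to 4, a mean of 6.51 ± 0.07, and 23 background genes reached that mean. The adjusted detection p was 0.0436. The call held without any single array but was lost when olfactory receptor genes alone served as background, as it was for Vipr1. That background called 4 of the 9 genes and 43.1% of all named genes. Leaving out low genes before the adjustment called the same number as the main rule, 6, and 48.7% of all named genes. On the array with its smallest margin, Nmur1 stood at -1.25 log2 units relative to the highest gene of another organ.

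Ret was called above background, and its co-receptors were not. Ret was at 7.31, 7.86, 7.46 and 7.35 on arrays 1 to 4, a mean of 7.50 ± 0.25, and 5 background genes reached that mean. Array 2 was the highest, 1.47-fold above array 1, the lowest. The adjusted detection p was 0.0179. On arrays 1, 3 and 4 a gene of another organ was higher, with a smallest margin of -0.14 log2 units. On array 2 Ret was above all of them, the highest being Cryaa at 7.73.

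Gfra1, whose product binds GDNF, was at 6.05, 6.09, 5.84 and 6.01, a mean of 6.00 ± 0.11, with an adjusted detection p of 0.0751. Gfra2, the co-receptor for neurturin, was at 5.87, 5.83, 5.87 and 6.04, a mean of 5.90 ± 0.09, with an adjusted detection p of 0.0797. Gfra3, the co-receptor for artemin, was at 6.03, 6.14, 6.07 and 5.97, a mean of 6.05 ± 0.07, with an adjusted detection p of 0.0675. The number of background genes at or above these means was 49, 54 and 43, respectively, so each stood in the upper tail of background. All 3 exceeded on every array the value that 95% of the background genes stayed under, a looser rule that called all 9 genes, 54.4% of all named genes and 10 of the 14 genes of other organs. An unadjusted detection p under 0.05 was likewise reached by all 9 genes and by 57.4% of all named genes. With limma's moderated test against the 95th percentile of the background means, Gfra1 and Gfra3 were called, at adjusted p of 0.0225 and 0.00263, and Gfra2 was not, at 0.132. That test called 8 of the 9 genes and 53.5% of all named genes. A low level of the co-receptor RNA is thus not distinguished from background by these arrays.

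**Figure D2:**
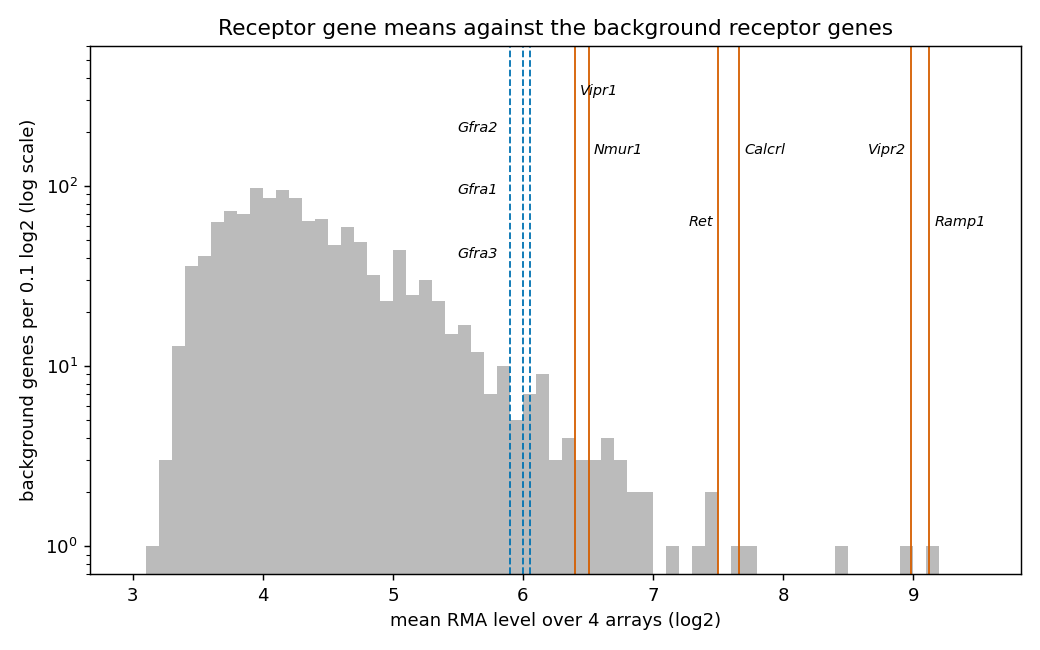
Histogram of the means of the 1241 background genes (x axis, log2 level; y axis, genes per bin on a log scale), with the mean of each of the 9 genes as a vertical line. Solid orange lines are genes called above background, dashed blue lines genes not called. The Gfra lines, at 5.90 to 6.05, fall in the upper tail of the histogram, and those of Vipr2 and Ramp1, at 8.98 and 9.12, near its end.

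The genes differed in how much they varied between arrays. Among called genes the median SD was 0.168 log2 units. Vipr2 and Ret, with SDs of 0.27 and 0.25, varied more than 77.3% and 73.6% of the called genes, and Ramp1 and Calcrl, at 0.15 and 0.14, more than 44.1% and 38.4%. Each of the other 5 genes had an SD of 0.11 or less. The highest array was array 1 for Vipr2, array 2 for Ramp1, Calcrl and Ret.

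Markers of other cells also differed between arrays, and their part in the values of the receptor genes was not tested. The mean level of 9 B cell markers was 8.72, 7.92, 8.87 and 7.87 on arrays 1 to 4, so it was high on arrays 1 and 3, where Ramp1 and Calcrl were lowest. The mean of 12 T cell markers was 7.46, 7.43, 7.73 and 7.45. That of 11 markers of ILC1 and natural killer (NK) cells was 6.89, 7.20, 6.92 and 6.66, with its highest value on array 2, as for Ret. These markers did not move together. Gzma, Xcl1, Klrb1c and Gzmb were highest on array 2, with Gzma at 5.19, 7.89, 5.41 and 5.94 on arrays 1 to 4. Klrk1, Ncr1, Tbx21, Prf1 and Itga2 were highest on array 1, Ccl5 on array 3 and Eomes on array 4. The mean of 10 ILC3 markers was 10.73, 10.81, 10.78 and 10.82.

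**Figure D3:**
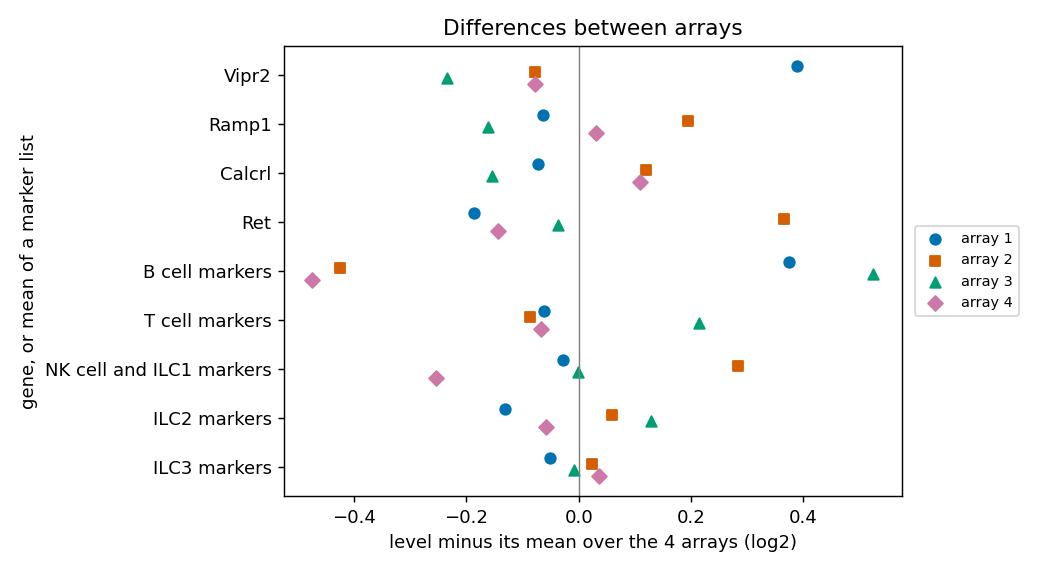
Level on each array minus the mean over the 4 arrays (x axis, log2), for Vipr2, Ramp1, Calcrl and Ret and for the mean of each marker list (y axis). B cell markers are high on arrays 1 and 3, Vipr2 is highest on array 1, and Ret is highest on array 2.

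Genes of the same receptor systems, with those of the 9 that belong to them, were counted beside the 46.2% of all named genes called. This share was 48% without array 2, 44.3% without array 3 and 45.6% without array 4. With the 9 genes left out, 0 of 3 were called for VIP and PACAP and 1 of 7 for CGRP and adrenomedullin. For the GDNF family it was 1 of 6, and for the neuromedin genes 1 of 5. In the VIP and PACAP system 2 of 5 genes were above background, both of them the VIP receptors, although 1 without array 3 or array 4. Adcyap1r1, which encodes the PACAP receptor PAC1, was at 6.06 ± 0.08 and Vip itself at 5.36 ± 0.10, both not called. In the CGRP and adrenomedullin system 3 of 9 measured genes were called, the third being Crcp, whose product is the CGRP receptor component protein and also an RNA polymerase subunit, at 7.62 ± 0.36. Ramp3 and Adm2, which encodes the ligand intermedin, were not called, at 6.21 ± 0.28 and 6.25 ± 0.14, but were without array 2, at 6.27 and 6.30, which raised the count to 5. Ramp2 was at 5.49 ± 0.10 and Calcr, the calcitonin receptor, at 5.13 ± 0.06, both not called and both chosen after their values were seen, as the other partners of RAMP1 and CALCRL.

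In the GDNF family system 2 of 10 genes were called. Beside Ret this was Pspn, which encodes the ligand persephin, at 6.18, 7.16, 6.30 and 6.21 on arrays 1 to 4. Its highest array was array 2, as for Ret, and without that array it was not called, at 6.23, leaving 1 called gene. Nrtn, which encodes neurturin, was at 6.11 ± 0.15 and not called. Among 6 genes grouped by the name neuromedin 2 were called, Nmur1 and Nmb, the latter at 7.04 ± 0.38. Nmb encodes neuromedin B, whose receptor is NMBR and not NMUR1. Nmu and Nmur2, the genes of neuromedin U and of its other receptor, were not called, at 4.46 ± 0.03 and 4.52 ± 0.05. Both were chosen after their values were seen. Nms and Nmbr, the genes of neuromedin S and of the neuromedin B receptor, were not called, at 5.16 ± 0.04 and 4.79 ± 0.10.

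Wider receptor families are given by the same rule, with its 46.2% of all named genes called, and none was tested against other genes. Of 15 class B peptide hormone receptors, the family of VIPR1, VIPR2 and CALCRL, 5 were called, and 3 without array 3 or array 4. With the 9 genes left out, 2 of 12 were called. Beyond those described these were Ghrhr, the receptor gene for growth hormone-releasing hormone, at 7.25 ± 0.08, and Gcgr, the glucagon receptor gene, at 6.39 ± 0.06, which was not called without array 3, at 6.40, or array 4, at 6.39. Both lay below a gene of another organ on at least 1 array. Of 39 measured receptors for other neurotransmitters and neuropeptides 3 were called and 0 exceeded the genes of other organs, while 9 were called by limma's test, against 53.5% of all named genes, and 11 had an unadjusted detection p under 0.05, against 57.4%. The called genes were Chrm1, a muscarinic receptor, at 6.74 ± 0.06, Sstr4, a somatostatin receptor, at 6.60 ± 0.13, and Oprd1, the delta opioid receptor, at 6.44 ± 0.05. Oprd1 was not called without array 3, at 6.46, and without array 2 the list had 5 calls. Of 8 neurotrophin and gp130 family receptors 3 were called, Il6st, which encodes gp130, at 8.25 ± 0.23, Ngfr, the low-affinity nerve growth factor receptor, at 6.99 ± 0.09, and Sort1, which encodes sortilin, at 6.63 ± 0.26. Cntfr at 5.95 ± 0.07 and Ntrk3 at 4.69 ± 0.07 were not called.

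Signalling genes downstream of these receptors were read against the 46.2% of all named genes that were called, and no list was tested against another. Of 28 measured genes of the cyclic AMP pathway 14 were called, with a list median of 6.31 against 6.16 over all named genes. They included Crtc2 and Crtc3, coactivators of CREB, at 10.08 ± 0.16 and 9.06 ± 0.11, Creb1 and Atf1, which encode transcription factors that bind the cyclic AMP response element, at 9.55 ± 0.05 and 9.38 ± 0.14, Prkacb, a catalytic subunit of protein kinase A, at 9.19 ± 0.12, and Pde7a, a phosphodiesterase that breaks down cyclic AMP, at 9.39 ± 0.19. Of the adenylyl cyclase genes, Adcy7 and Adcy4 were called, at 8.97 ± 0.06 and 6.54 ± 0.17, both named after their values were seen. The other measured adenylyl cyclase genes were not called, the highest of them Adcy3 at 6.17 ± 0.02. The phosphodiesterase gene Pde8a was not called either, at 6.09 ± 0.18.

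On the Gq, phospholipase C and NFAT pathway, to which NMUR1 couples, 14 of 15 measured genes were called, with a median of 7.89. Nfatc3 was at 10.33 ± 0.04, Plcb4, a phospholipase C gene, at 10.12 ± 0.07, Itpr2, an IP3 receptor gene, at 9.62 ± 0.13, and the calcineurin genes Ppp3ca and Ppp3cb at 9.37 ± 0.23 and 8.96 ± 0.13. Plcb1 was not called, at 5.71 ± 0.03. Of 18 measured genes of RET adaptors and signalling 12 were called, with a median of 7.60. Stat3 was at 9.31 ± 0.07, Pik3r1 and Pik3ca, subunits of PI3 kinase, at 9.31 ± 0.21 and 8.46 ± 0.06, and Ptpn11, which encodes the phosphatase SHP2, at 8.16 ± 0.05. Plcg1 was not called, at 6.30 ± 0.17, but was without array 2, at 6.37. These pathways serve many receptors of lymphocytes, and the data hold no measure of signalling.

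**Figure D4:**
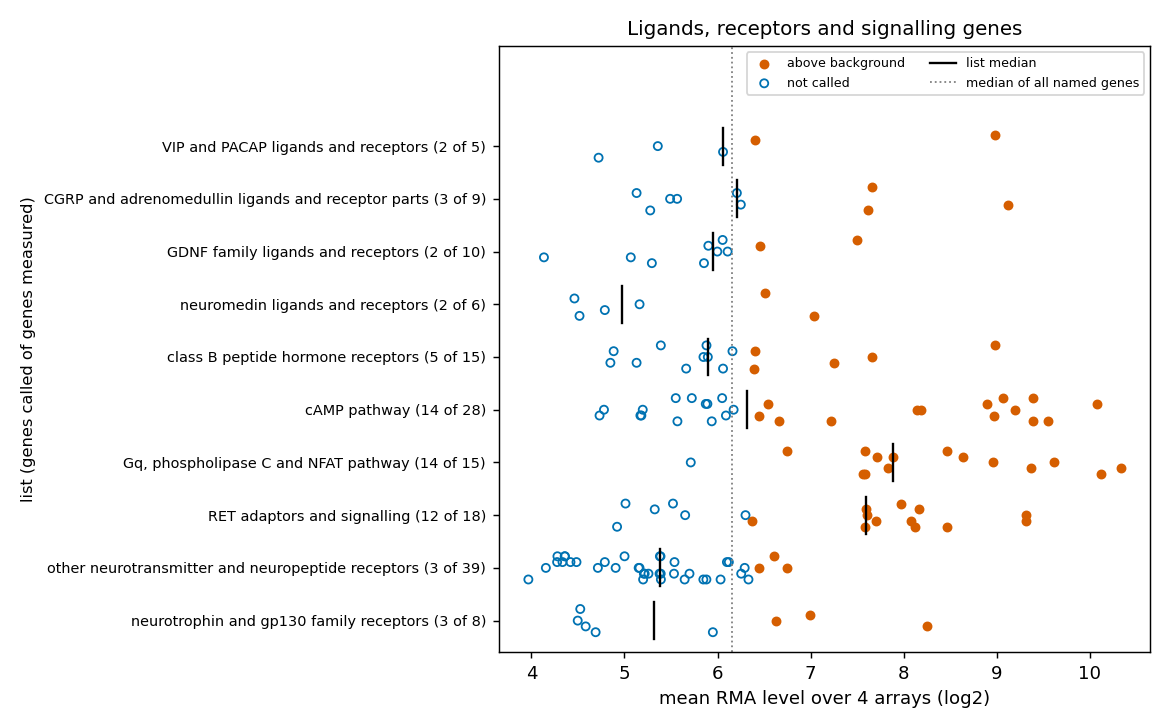
Mean log2 level over 4 arrays (x axis) of each measured gene of 10 lists of ligands, receptors and signalling genes (y axis, with genes called of genes measured). Filled points are called above background, open points are not, black bars are list medians, and the dotted line is the median of all named genes, 6.16. The Gq list has 14 of 15 genes called, and the list of other neurotransmitter and neuropeptide receptors 3 of 39.

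The sorted population carried the ILC3 markers and also markers of other cells. All 10 measured ILC3 markers were called and exceeded the genes of other organs on every array, among them Il7r, which encodes CD127, at 12.56 ± 0.06 and Thy1, which encodes CD90, at 11.36 ± 0.15. B cell markers were called in 8 of 9 cases, T cell markers in 10 of 12, and NK cell and ILC1 markers in 7 of 11. The same rule called 46.2% of all named genes. The highest of each list were Cd79b at 9.84 ± 0.55, Lat at 10.03 ± 0.12 and Ccl5 at 9.81 ± 0.83. The T cell receptor complex gene Cd3e was at 8.91 ± 0.22, and the part of such cells in the receptor levels was not tested. Of 9 measured ILC2 markers, listed because NMUR1 is best known in ILC2, 4 were called, near the share over all named genes. Gata3, a transcription factor gene that ILC3 also express, was at 9.72 ± 0.12, Arg1 at 7.67 ± 0.79, Il17rb at 6.69 ± 0.55 and Il13 at 6.69 ± 0.37, while Ptgdr2 was not called over all 4 arrays, at 6.32 ± 0.04, but was without array 1 or array 2, at 6.32 each. The ILC2 markers Klrg1 and Il5 were at 5.15 ± 0.13 and 4.57 ± 0.18, not called and chosen after their values were seen. The mean of the ILC2 list was 6.26, 6.45, 6.52 and 6.34 on arrays 1 to 4, and its part in the level of Nmur1 was not tested.

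Markers of mast, endothelial, stromal and neural cells, some of which also carry receptors described here, were read against the 46.2% of all named genes that were called. Mast cell and basophil markers were called in 0 of 7 cases, also by limma's test and at an unadjusted p under 0.05, with a mean of the list from 4.60 to 4.70 over the arrays. Endothelial and stromal markers were called in 5 of 13 cases, near the share over all named genes. These were Pecam1, which leukocytes also express, at 8.44 ± 0.18, the chemokine gene Ccl19 of stromal cells at 6.94 ± 0.20, the collagen genes Col1a1 and Col1a2 at 6.93 ± 0.09 and 6.56 ± 0.06, and Pdgfrb, a receptor gene of perivascular cells chosen after its values were seen, at 6.55 ± 0.19. Their part in the levels of Calcrl and Ramp1 was not tested. The endothelial genes Cdh5, Kdr and Flt4, also chosen after their values were seen, were not called, at 5.04 ± 0.06, 5.03 ± 0.03 and 4.95 ± 0.09. Neuronal and glial markers were called in 2 of 9 cases, Sox10 at 6.46 ± 0.04 and Snap25 at 6.39 ± 0.17, and Snap25 was not called without array 3, at 6.41, or array 4, at 6.30. Dendritic cell and macrophage markers were called in 3 of 10 cases, and in 5 without array 2 or array 4. The called genes were Batf3 at 8.94 ± 0.19, Lyz2 at 8.22 ± 0.73 and Cd68 at 6.94 ± 0.46. Batf3 and Lyz2 exceeded the genes of other organs on every array. The mean of this list was 6.41, 6.41, 6.47 and 6.14 on arrays 1 to 4, and its part in the receptor levels was not tested. The genes of other organs gave 6 calls among 14, led by the lens crystallin gene Cryaa at 7.51 ± 0.16 and the muscle creatine kinase gene Ckm at 7.33 ± 0.14, so the calls of Ret, at 7.50, and of Nmur1 and Vipr1, at 6.51 and 6.40, lie within the range of genes of other organs and carry little weight. Calcrl, at 7.66, stands just above that range.

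**Figure D5:**
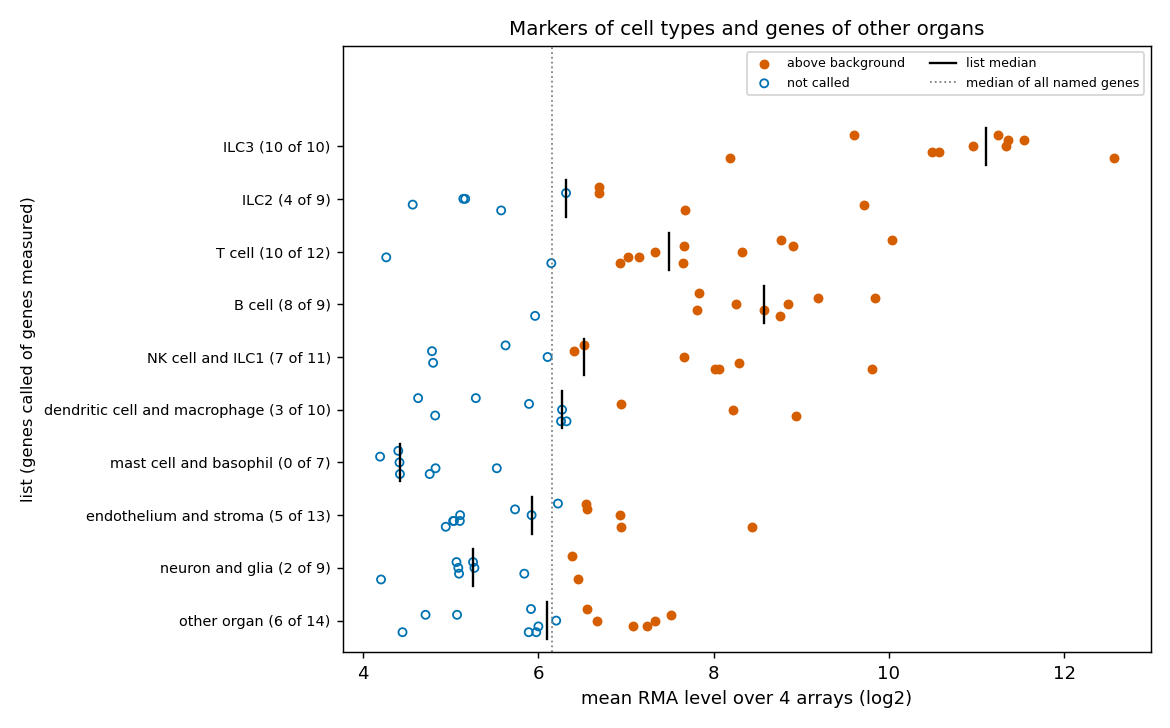
Mean log2 level over 4 arrays (x axis) of each measured marker of 9 cell type lists and of genes of other organs (y axis, with genes called of genes measured), drawn as in the plot of pathway lists. All 10 ILC3 markers and 0 of 7 mast cell and basophil markers are called, as are 6 of 14 genes from other organs.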

How the data were processed

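The authors deposited log2 levels of probe sets. Per the submitters' processing notes these come from RMA, the robust multi-array average, which subtracts background, equalises the arrays and combines the probes of a set. The version, software and genome build were not given in the sources used here. Scanner files were not used, so these steps could not be varied, and the number of arrays limits the precision. RMA can give several arrays the same value, as it did for 10.9% of genes above background, and their SD can then be too small.

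Of 35556 probe sets, 21789 had a single gene symbol in GEO's platform annotation, 1621 had several and were left unnamed, and 12146 were not listed. Symbols were updated by Entrez identifier for 21698 probe sets, through RefSeq's gene table of GRCm38.p6. Array medians over all probe sets were 5.99 to 6.03, and Pearson's r between arrays over them was 0.964 to 0.971, which describes the arrays only. Of the background genes 27 were called, and the smallest possible detection p was 0.000805.

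Calculations used Python 3.11.15, pandas 2.3.3 and NumPy 2.4.6, and limma 3.58.1 in R 4.3.3, tested on simulated data. The 9 genes, the lists and the rule for named genes were chosen with earlier results of these data known. The rule took the 9 genes, in each pathway list up to 6 called genes and 2 not called with the highest means, and in each marker list up to 4 and 2, of which those a result turns on are named. List genes without a probe set of their own are not analysed here. Alternatives were each array left out, looser detection rules, limma's test, other background genes, averaged probe sets, a filter on low values and array centring. Promoter sequences, from RefSeq, were used for 6 of the 9 genes.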

Additional observations from a re-analysis of the deposited data

Results flagged for a closer look

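None of the 9 receptor genes had an array that stood apart by Dixon's ratio, the gap to the nearest array over the whole range, at its 95% critical value for 4 arrays. Gfra2 came closest, at 0.825, with array 4 the highest. Of 105 named genes, 15 passed it, where chance gives about 1 in 20 for normally distributed values without ties. Several of the flagged genes had tied arrays, so that rate does not strictly apply and no excess is read from the count. In the receptor systems these were Crcp at 1.00 (7.07 on array 3 and 7.80 on the others), Pspn at 0.878 (array 2 the highest), Nms at 1.00, Crhr1 at 0.963 and Ntrk3 at 0.885. Among signalling genes they were Crtc3 at 0.840, Ppp3cc at 0.921 and Gab2 at 0.969. Among markers they were Il4 at 1.00, Cd3g at 0.888 (9.51 on array 3), Adgre1 at 0.873 (array 3 the highest), Pecam1 at 1.00 and Snap25 at 0.890, and among genes of other organs Ckm at 0.923 and Prm1 at 0.950. A ratio of 1.00 means that the other 3 arrays shared 1 value to all deposited digits.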

How the results depend on the processing

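The calls of Vipr2, Ramp1, Calcrl and Ret were kept in each of the 11 alternatives, with means of 8.86 to 9.06, 9.06 to 9.18, 7.62 to 7.72 and 7.38 to 7.56. Not all of these could have changed a call. The unadjusted p and the filter on low genes cannot remove one. Averaging left the levels of these genes as they were, since each has 1 probe set. The number of called genes among the 9 was 5 or 6 with an array left out, 5 with averaged probe sets, 4 with olfactory receptor genes alone as background, 6 with low genes filtered, 8 by limma's test, and 9 at an unadjusted detection p under 0.05 or by the looser rule on every array. These settings called 43.1% to 57.4% of all named genes. Vipr1 lost its call in 4 alternatives and Nmur1 in 1. Gfra1 and Gfra3 gained one in 3 and Gfra2 in 2. The count above all genes of other organs was 3 in each alternative run for it, also without Cryaa, a choice made after seeing the data, which raised the share of all named genes from 21.7% to 25%. For the 96 other named genes, 872 of 960 calls across alternatives were as given, 11 were lost and 77 gained. List counts differed by over 1.5 times in 35 of 200 cases; the 39 other receptors had 2 to 11 calls, and the GDNF family 1 to 7. The cause was not tested. With 4 arrays of 1 group and no scanner signal, low levels cannot be told from background. No paired analysis was possible because there is 1 group.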
